A study of Homo sapiens with 30 samples.

Results

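Expression of 10 genes of the transforming growth factor beta (TGF-beta) pathway was followed in 5 human cell lines treated with the glycogen synthase kinase 3 (GSK-3) inhibitor elraglusib. The genes are the receptors TGFBR1, TGFBR2 and TGFBR3, the signal transducers SMAD2, SMAD3 and SMAD4, and 4 genes whose products restrain the pathway, SMAD7, SKIL, PMEPA1 and CD109. They were taken by symbol from the 22465 genes that the arrays name with a single symbol, and each of the 10 was measured by 1 probe set. No cut on their values picked them, but they and the lists below were chosen with earlier results of these data known. Counts of called genes are therefore not those of a blind choice. The study itself had named TGFBR2, TGFBR3, CD109 and SMAD3 from these same arrays, so those 4 are not independent evidence of a direction.

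TGF-beta ligands are secreted in a latent form and, once released, bring together the type II receptor TGFBR2 and the type I receptor TGFBR1, a kinase that phosphorylates SMAD2 and SMAD3. The phosphorylated pair joins SMAD4, enters the nucleus and changes transcription. The pathway slows the growth of normal colon epithelium and is often lost in colorectal carcinoma, while in T cells and natural killer cells it lowers cytotoxic activity.

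The arrays (Affymetrix HTA 2.0, 30 in all) measured RNA from the colorectal carcinoma lines HCT-116, HT-29 and KM12C, the natural killer lymphoma line NK-92 and the CD8+ T cell leukemia line TALL-104. Each line was given 1 µM elraglusib or the vehicle DMSO for 24 h, with 3 arrays per line and treatment, and both treatments of the 2 immune lines were grown with interleukin-2. The study's text also describes the dose as inhibitory concentrations found for the lines, so it is given here as labelled. HCT-116 is known for an inactivating frameshift in TGFBR2 and HT-29 for a truncating mutation of SMAD4, and each line stands for 1 established clone or culture, not for a tumor. The labels call the 3 arrays of a group biological replicates and do not name their cultures, so the spread behind each p-value may be partly technical. RNA is pooled over all cells of a culture, and a change in every cell cannot be told apart from a larger change in some of them.

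Median signal over all 67528 probe sets lay between 4.23 and 4.60 (log2) on the 30 arrays, and 29 of them correlated best with their own line. The exception was the array labelled TALL-104 DMSO replicate 2, which correlated at 0.988 to 0.993 with the 6 NK-92 arrays and at 0.859 to 0.871 with the other 5 TALL-104 arrays. Its median over 7 T cell markers was 4.27 against 13.96 to 14.29 on those 5 arrays. For 8 of the 10 genes its value lay inside the NK-92 range, and for 2 of the 10 it lay inside the range of the other TALL-104 arrays. Those 2, PMEPA1 and CD109, were inside both ranges and so do not tell the lines apart. TGFBR2 (10.57) and TGFBR3 (8.76) were inside neither. It was kept under its label in the main fits, and the main results it enters are also given without it. Epithelial markers (8 genes) had medians of 12.00 to 14.35 in the colorectal lines and at most 5.60 in the other 2.

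**Figure D1:**
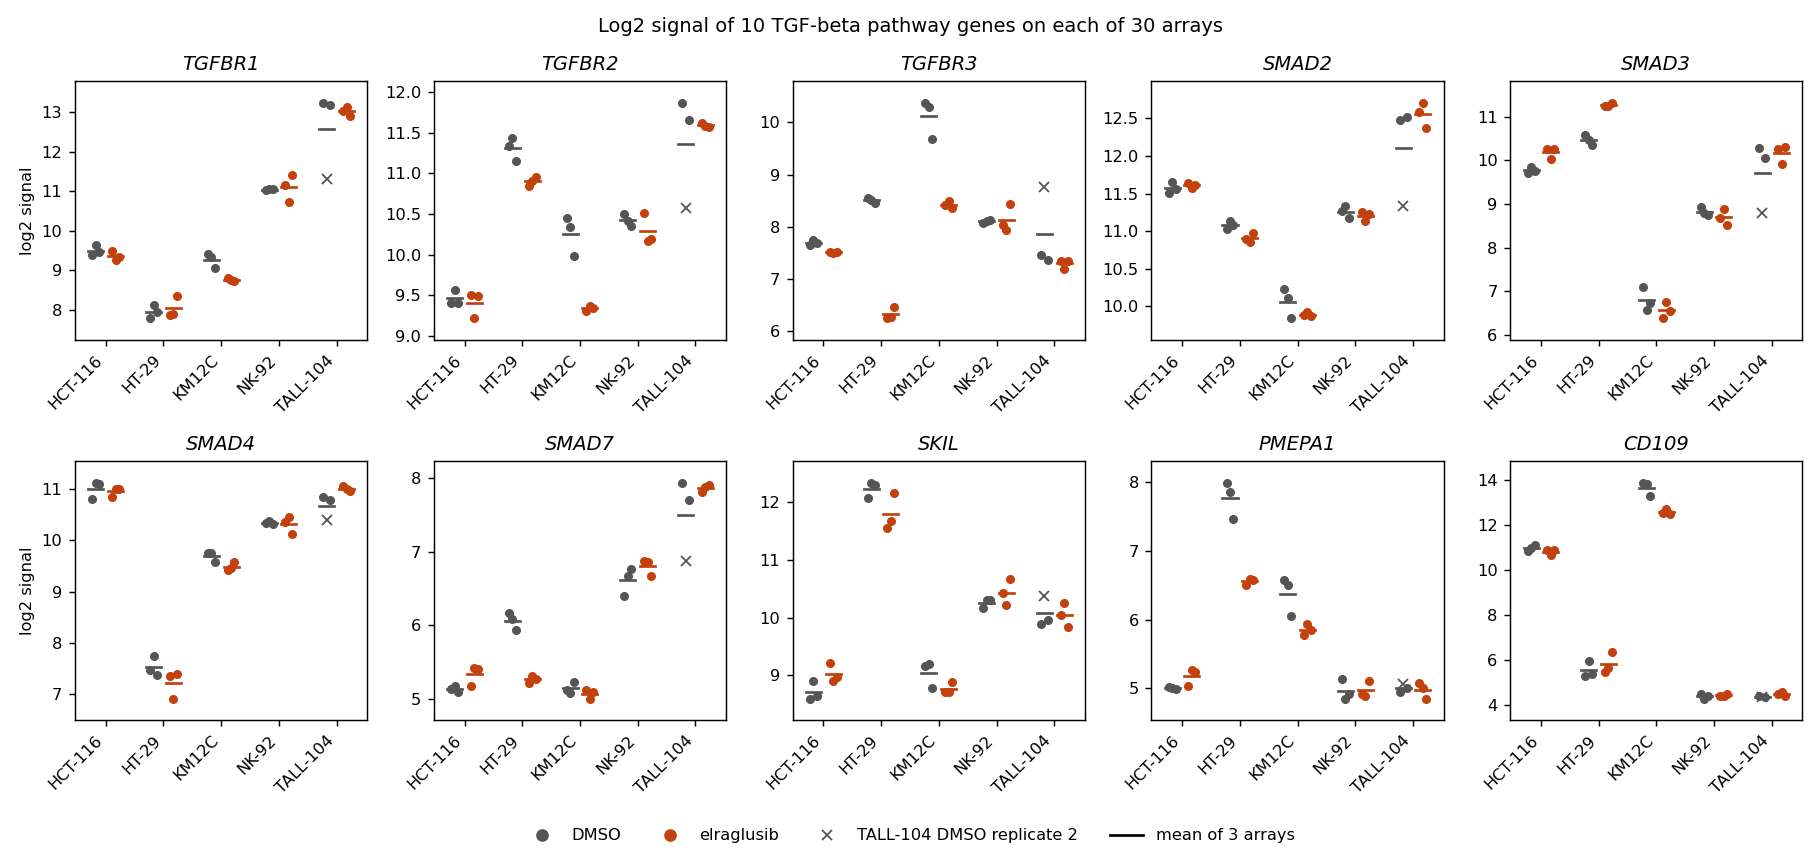
Log2 signal (vertical axis, a separate scale in each panel) of the 10 genes on every array, by cell line (horizontal axis), with DMSO in grey, elraglusib in orange and a bar at the mean of the 3 arrays. The 3 elraglusib arrays of HT-29 and of KM12C lie more than 1 log2 unit below every DMSO array for TGFBR3, and the cross marks TALL-104 DMSO replicate 2, which lies near NK-92 in most panels.

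Without drug, the lines differed in which parts of the pathway they expressed. The comparisons of DMSO levels that follow come from a limma fit without TALL-104 DMSO replicate 2, which leaves 2 DMSO arrays of that line, and values are log2 signal as mean ± SD of the remaining arrays. With that array kept, 9 of the 100 comparisons of a gene between 2 lines changed call. TGFBR1 was 13.21 ± 0.04 in TALL-104 (n = 2), 11.04 ± 0.02 in NK-92, 9.50 ± 0.12 in HCT-116, 9.27 ± 0.18 in KM12C and 7.95 ± 0.17 in HT-29 (n = 3 each). Only HCT-116 and KM12C, neighbours in that order, did not differ (adjusted p = 0.343). TGFBR2 was 11.77 ± 0.15 in TALL-104 and 11.31 ± 0.15 in HT-29, and it was lowest in HCT-116 at 9.46 ± 0.09. Between these, NK-92 (10.42 ± 0.07) and KM12C (10.26 ± 0.24) were not separated by the test (adjusted p = 0.290). TGFBR3, or betaglycan, a coreceptor that presents ligand to the signalling receptors, was highest in KM12C at 10.12 ± 0.38, followed by HT-29 at 8.51 ± 0.06, NK-92 at 8.11 ± 0.03, HCT-116 at 7.70 ± 0.05 and TALL-104 at 7.42 ± 0.08. The last pair did not differ (adjusted p = 0.166). With all arrays, TGFBR2 was not separated between TALL-104 and HT-29 (adjusted p = 0.874), nor TGFBR3 between HT-29 and NK-92 (0.214) or NK-92 and HCT-116 (0.208).

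Among the SMADs, HT-29 and KM12C were low for different members. SMAD4, the shared partner of all receptor-activated SMADs, was 7.53 ± 0.19 in HT-29, 2.16 log2 units below KM12C (9.69 ± 0.11, adjusted p = 4.7e-13) and further below NK-92 (10.34 ± 0.03), TALL-104 (10.82 ± 0.04) and HCT-116 (11.01 ± 0.17). SMAD3 was 6.79 ± 0.27 in KM12C, 2.03 below NK-92 (8.82 ± 0.10, adjusted p = 3.0e-12), and was higher in HCT-116 (9.77 ± 0.07), TALL-104 (10.17 ± 0.15) and HT-29 (10.46 ± 0.11), of which the last 2 did not differ (adjusted p = 0.150). SMAD2 spanned less, from 10.06 ± 0.20 in KM12C to 12.50 ± 0.03 in TALL-104, with HT-29 at 11.08 ± 0.05, NK-92 at 11.26 ± 0.08 and HCT-116 at 11.57 ± 0.07, and only HT-29 and NK-92 were not separated among neighbours (adjusted p = 0.164). The inhibitory SMAD7, which binds the activated receptor and brings ubiquitin ligases to it, was 7.83 ± 0.16 in TALL-104, 6.61 ± 0.19 in NK-92, 6.06 ± 0.12 in HT-29, 5.14 ± 0.08 in KM12C and 5.13 ± 0.04 in HCT-116. The last 2 lines were not separated for SMAD7 (adjusted p = 0.971). With all arrays, SMAD2 was not separated between HCT-116 and NK-92 (adjusted p = 0.244), SMAD3 between TALL-104 and HCT-116 (0.879) or SMAD4 between TALL-104 and NK-92 (0.115), whereas SMAD3 differed between HT-29 and TALL-104 (0.0157).

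The other 3 restraining genes were each high in 1 or 2 colorectal lines. SKIL encodes SnoN, a repressor that holds SMAD complexes inactive on DNA, and it was 12.23 ± 0.14 in HT-29, 1.97 above NK-92 (adjusted p = 7.1e-11), against 8.71 ± 0.16 in HCT-116 and 9.05 ± 0.22 in KM12C. Neither NK-92 (10.26 ± 0.08) and TALL-104 (9.93 ± 0.05) nor KM12C and HCT-116 were separated for SKIL (adjusted p = 0.207 and 0.144). PMEPA1, a TGF-beta-induced membrane protein that keeps SMAD2 and SMAD3 from the receptor, was 7.77 ± 0.27 in HT-29, 6.38 ± 0.28 in KM12C, and between 4.97 and 5.00 in HCT-116, NK-92 and TALL-104, among which no neighbours differed. CD109, a surface protein that binds TGF-beta and promotes removal of its receptors, was 13.67 ± 0.31 in KM12C, 11.00 ± 0.14 in HCT-116, 5.55 ± 0.35 in HT-29, 4.40 ± 0.09 in NK-92 and 4.39 ± 0.06 in TALL-104. Levels near 5 and below lie close to the median of all probe sets, and the deposited table holds no detection call for them.

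Set against each other on DMSO arrays, the 3 colorectal lines and the 2 immune lines differed for 8 of the 10 genes, where 40.3% of all probe sets differed, and for 9 of 10 without the TALL-104 array that resembled NK-92, where 43.2% did. With all arrays, CD109 was 5.68 (SE 0.12), PMEPA1 1.40 (SE 0.08) and TGFBR3 0.79 (SE 0.15) higher in the colorectal lines. Lower there were TGFBR1 at -2.91 (SE 0.19), SMAD7 at -1.61 (SE 0.11), SMAD4 at -1.10 (SE 0.09), SMAD2 at -0.78 (SE 0.12) and TGFBR2 at -0.55 (SE 0.13). Without that array the 3 positive differences were 5.68, 1.41 and 1.01 and the 5 negative ones -3.22, -1.77, -1.17, -0.98 and -0.75, in the same order of genes. These are means over lines that differ among themselves, as the single-line levels of SMAD4, CD109, TGFBR3, SMAD2 and TGFBR2 show. The SE and p-values come from the spread of arrays within lines. They do not measure the spread between lines, so the differences describe these lines only and not kinds of cell. SMAD3 differed between these sets of lines only without that array (adjusted p = 0.172 with it and 1.1e-04 without it), and SKIL differed in neither case (adjusted p = 0.196 and 0.472).

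In HT-29, elraglusib lowered a coreceptor and a pair of feedback inhibitors and raised an activating SMAD. There, 4 of 10 genes passed the test (limma on the 6 arrays of the line, Benjamini-Hochberg adjusted p under 0.05 over all probe sets), 1 upward and 3 downward, where 8.01% of all probe sets and 9.85% of genes with a single symbol were called (4.62% of probe sets up and 3.39% down). TGFBR3 read 8.56, 8.52 and 8.45 on the DMSO arrays and 6.25, 6.27 and 6.46 on the elraglusib arrays. All treated arrays were far below all controls, and TGFBR3 fell by 2.18 (SE 0.11, adjusted p = 3.5e-05), which is 4.54-fold lower. PMEPA1 read 7.99, 7.85 and 7.46 with DMSO and 6.51, 6.59 and 6.57 with drug. The groups again did not overlap, and PMEPA1 fell by 1.21 (SE 0.15, adjusted p = 0.00144), 2.31-fold lower. SMAD7 read 6.17, 6.08 and 5.94 with DMSO and 5.21, 5.31 and 5.27 with drug. It fell by 0.80 (SE 0.11, adjusted p = 0.00296), 1.74-fold lower, again with no overlap. The treated SMAD7 values lie near those of HCT-116 and KM12C and not far above the median of all probe sets, so this fold may understate the fall. SMAD3 moved the other way, from 10.57, 10.46 and 10.35 to 11.24, 11.25 and 11.32. It rose by 0.81 (SE 0.11, adjusted p = 0.00262), 1.75-fold higher, and every treated array was above every control. The study had already named SMAD3 as raised in HT-29 from these same arrays, so its place in the count is not independent.

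None of the other 6 genes passed in HT-29. TGFBR2 was 11.34, 11.44 and 11.15 with DMSO and 10.84, 10.91 and 10.96 with drug, a difference of -0.41 (SE 0.12, adjusted p = 0.0831) in which the groups did not overlap. It passed after quantile normalization (adjusted p = 0.0221), with array weights (0.0209) and without DMSO replicate 3 (0.0448). SKIL differed by -0.44 (SE 0.17, adjusted p = 0.205) and passed only without elraglusib replicate 3, the highest of its treated arrays at 12.16 (difference -0.62, adjusted p = 0.0391). Differences were -0.31 for SMAD4, -0.17 for SMAD2, 0.09 for TGFBR1 and 0.29 for CD109, with 95% confidence intervals that include 0. Of the 8 epithelial markers, CDH1 (-0.60, adjusted p = 0.0259) and VIL1 (-0.76, adjusted p = 0.0459) also fell in HT-29, each called in only 1 of the 6 fits that leave out an array, and their part in the results above was not tested.

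The sequences around the starts of the 4 genes called in HT-29 are shown because SMAD7 and PMEPA1 are known targets of SMAD complexes and moved against SMAD3. Each is a RefSeq window of 300 bases (GRCh38.p14), from 250 before to 50 after an annotated start, on the gene's strand, and of several windows of a gene the one with the most copies of the SMAD-binding letters was taken. Capitals mark CAGAC, the SMAD-binding element, or GTCTG, its reverse complement. The windows are chr1:91886102-91886401 (minus strand) for TGFBR3, chr18:48950916-48951215 (minus strand) for SMAD7, chr20:57709966-57710265 (minus strand) for PMEPA1 and chr15:67166281-67166580 (plus strand) for SMAD3.
TGFBR3: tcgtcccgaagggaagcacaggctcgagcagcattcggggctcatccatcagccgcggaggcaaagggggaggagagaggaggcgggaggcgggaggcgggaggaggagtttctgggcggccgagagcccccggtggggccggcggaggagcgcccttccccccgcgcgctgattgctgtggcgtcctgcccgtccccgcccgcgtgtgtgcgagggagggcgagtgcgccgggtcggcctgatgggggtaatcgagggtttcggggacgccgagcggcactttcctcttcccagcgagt
SMAD7: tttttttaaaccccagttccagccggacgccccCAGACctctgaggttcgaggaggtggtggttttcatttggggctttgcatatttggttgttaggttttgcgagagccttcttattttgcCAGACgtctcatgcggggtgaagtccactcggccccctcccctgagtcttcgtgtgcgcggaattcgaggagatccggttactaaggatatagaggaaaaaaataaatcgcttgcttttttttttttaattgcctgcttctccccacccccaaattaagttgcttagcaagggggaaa
PMEPA1: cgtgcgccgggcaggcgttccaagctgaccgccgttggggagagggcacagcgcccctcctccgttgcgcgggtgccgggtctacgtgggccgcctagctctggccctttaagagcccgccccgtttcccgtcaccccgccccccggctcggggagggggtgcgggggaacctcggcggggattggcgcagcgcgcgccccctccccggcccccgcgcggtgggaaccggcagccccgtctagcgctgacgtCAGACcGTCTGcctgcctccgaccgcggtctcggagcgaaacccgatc
SMAD3: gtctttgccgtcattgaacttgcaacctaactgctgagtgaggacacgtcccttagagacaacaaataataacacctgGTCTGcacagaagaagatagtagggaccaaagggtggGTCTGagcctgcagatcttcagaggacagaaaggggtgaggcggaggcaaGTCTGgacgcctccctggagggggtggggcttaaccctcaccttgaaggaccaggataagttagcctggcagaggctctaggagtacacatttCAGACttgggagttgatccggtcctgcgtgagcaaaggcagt

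The TGFBR3 window held no CAGAC. Matches began 217 and 128 bases before the SMAD7 start, 2 and 8 bases after the PMEPA1 start on opposite strands, and 172, 135 and 85 bases before and 8 bases after the SMAD3 start. Searched on both strands, it was in 14 of the 28 windows of the 10 genes and in 45.3% of all 35116 windows, and at least 2 copies were in 6 of the 28 and in 13.1% of all. The palindrome GTCTAGAC, the longer form of the element, was in none of the 28 windows and in 0.202% of all. The windows are spread unevenly over the genes. TGFBR1 had 8 of the 28, with a CAGAC match in 4, and some of these windows overlap, so a copy may be counted more than once. The SMAD3 window belongs to 1 of 5 annotated starts, and the arrays do not tell which start was used. The letters are common, and a match says nothing about binding in these cells.

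In KM12C, 3 of the 10 genes passed the test and all 3 fell, where 1.5% of all probe sets and 1.89% of genes with a single symbol were called (0.894% of probe sets down). TGFBR3 read 10.38, 10.29 and 9.68 with DMSO and 8.41, 8.49 and 8.36 with drug. Every treated array was below every control, and TGFBR3 fell by 1.70 (SE 0.19, adjusted p = 0.00654), 3.24-fold lower. CD109 read 13.88, 13.82 and 13.31 with DMSO and 12.55, 12.71 and 12.49 with drug. It fell by 1.09 (SE 0.17, adjusted p = 0.0239), 2.12-fold lower, with no overlap. TGFBR2 read 10.45, 10.34 and 9.99 with DMSO and 9.31, 9.37 and 9.35 with drug. It fell by 0.92 (SE 0.14, adjusted p = 0.0233), 1.89-fold lower, with no overlap. All 3 encode cell-surface proteins that bind ligand. The study had already named all 3 as lowered in KM12C from these same arrays, so this count is not independent of that choice.

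DMSO replicate 3 was the lowest KM12C control for all 3 of these genes. Without it, 5 genes were called, TGFBR1 (difference -0.60, adjusted p = 0.0210) and PMEPA1 (-0.69, adjusted p = 0.0175) among them, but 10.8% of all probe sets were then called too. With all arrays those 2 were at -0.50 (SE 0.13, adjusted p = 0.0957) and -0.52 (SE 0.16, adjusted p = 0.144), both with groups that did not overlap. Leaving out any of the other 5 arrays kept TGFBR3 called but took TGFBR2 to an adjusted p of 0.0766 to 0.109 and CD109 to 0.0629 to 0.111, with differences of -0.93 to -0.82 and of -1.15 to -0.98. The remaining 5 genes were SKIL at -0.28, SMAD3 at -0.23, SMAD4 at -0.21, SMAD2 at -0.17 and SMAD7 at -0.07, all with intervals that include 0. Quantile normalization, which moved the median difference of all probe sets in KM12C by -0.11 from 0.11, left the same 3 genes called.

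**Figure D2:**
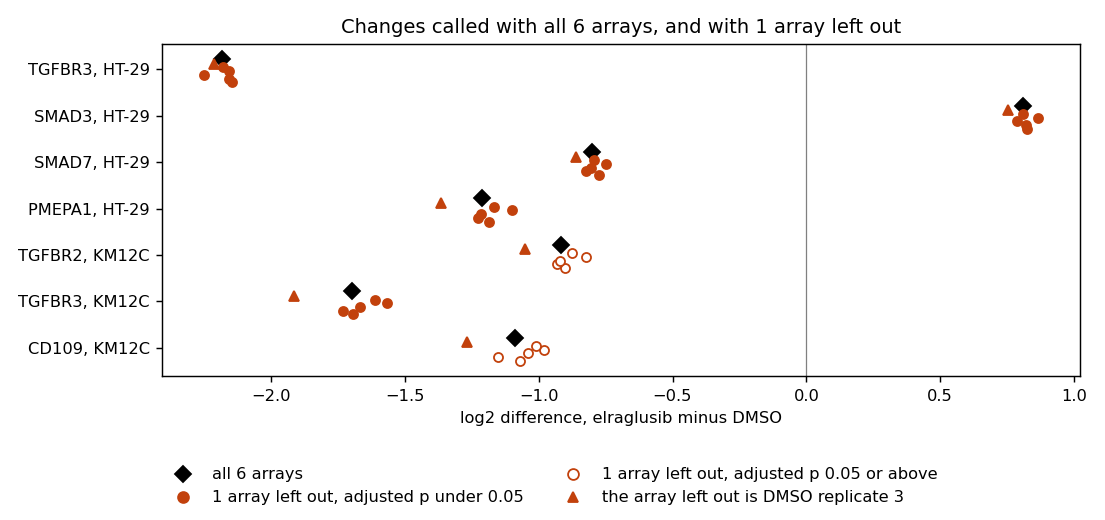
Log2 difference, elraglusib minus DMSO (horizontal axis), for the 7 changes called with all 6 arrays of a line (black diamonds) and with each array left out (orange, filled where still called, triangles for DMSO replicate 3). The 4 HT-29 changes and TGFBR3 in KM12C are called in 6 of 6 fits, whereas TGFBR2 and CD109 in KM12C are called in 1 of 6.

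No gene of the 10 was called in HCT-116, where 1.15% of all probe sets were. Differences ran from -0.19 to 0.41, and 2 of the 10 had an unadjusted p under 0.05, against 12.8% of all probe sets. SMAD3 read 9.71, 9.85 and 9.76 with DMSO and 10.26, 10.02 and 10.26 with drug. Its treated arrays were all above the controls, and the difference was 0.41 (SE 0.10, adjusted p = 0.135, 95% confidence interval 0.16 to 0.65). The other was SKIL at 0.32 (SE 0.13, adjusted p = 0.356), whose groups overlapped. TGFBR3, the gene with the deepest fall in HT-29 and KM12C, read 7.66, 7.75 and 7.69 with DMSO and 7.52, 7.50 and 7.52 with drug in HCT-116. The groups did not overlap, but the difference of -0.19 (SE 0.08, adjusted p = 0.419) was small.

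In the immune lines no gene of the 10 was called by limma, and neither was any probe set (0% in NK-92 and 0% in TALL-104). None of the 10 had an unadjusted p under 0.05 in either line, against 4.34% of all probe sets in NK-92 and 4.86% in TALL-104. NK-92 differences ran from -0.13 to 0.19, and the 95% confidence intervals of all 10 lay between -0.42 and 0.49. TALL-104 differences ran from -0.56 to 0.45 with all arrays. They ran from -0.19 to 0.19 without DMSO replicate 2, where TGFBR1 went from 0.44 to -0.19, TGFBR3 from -0.56 to -0.12 and SMAD3 from 0.45 to -0.01. TGFBR3, for example, read 7.47, 8.76 and 7.36 with DMSO, the middle value being that array, and 7.35, 7.20 and 7.35 with drug. Without the array, intervals of the 10 genes in TALL-104 lay between -0.49 and 0.50.

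**Figure D3:**
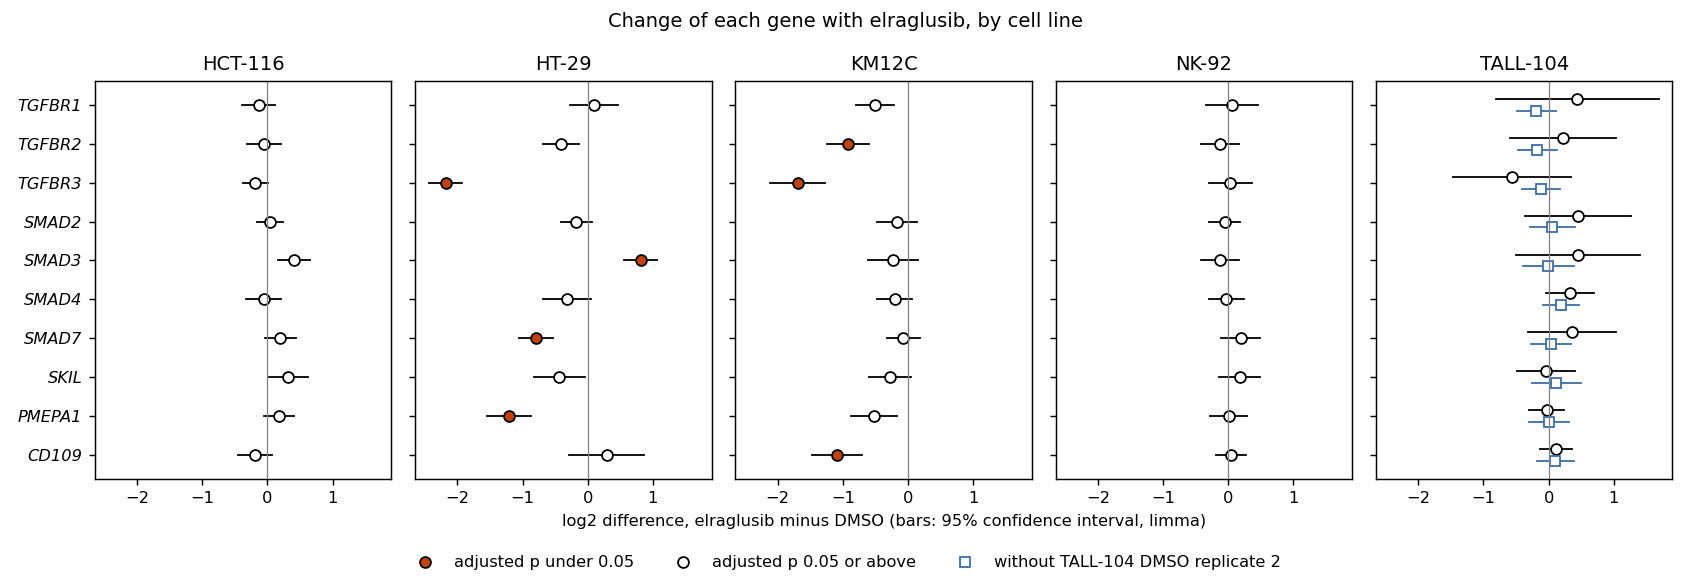
Log2 difference, elraglusib minus DMSO (horizontal axis), of each gene in each line, with the 95% confidence interval of limma, filled where the adjusted p is under 0.05. Filled points are at HT-29 (4) and KM12C (3) only, and in TALL-104 the squares, fitted without DMSO replicate 2, lie closer to 0 than the circles for TGFBR1, TGFBR3 and SMAD3.

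Treated and control arrays did not overlap for 3 of the 10 genes in HCT-116, 6 in HT-29, 5 in KM12C, 0 in NK-92 and 2 in TALL-104. The shares of all probe sets without overlap were 17.2%, 21.7%, 21.8%, 7.98% and 11.9% in the same order. Without DMSO replicate 2, 4 of the 10 did not overlap in TALL-104, beside 20.4% of all probe sets.

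Whether the lines responded differently was tested directly, as contrasts of the 2 lines' effects in 1 model of the 30 arrays. TGFBR3 fell further in HT-29 than in HCT-116 by 2.00 (SE 0.32, adjusted p = 2.6e-04), and further in KM12C than in HCT-116 by 1.51 (SE 0.32, adjusted p = 0.0190). The first held in all 30 fits that leave out an array, and the second was lost in 8 of them (adjusted p up to 0.0819), each without 1 of 4 HCT-116 or 4 KM12C arrays. The 3 DMSO and 3 treated arrays of a line enter each of its contrasts, so these differences are not independent of each other. HT-29 and KM12C, in both of which TGFBR3 fell, differed for CD109 by 1.38 (SE 0.25, adjusted p = 0.00305), which read 5.30, 5.95 and 5.40 with DMSO in HT-29 and 5.50, 5.64 and 6.38 with drug. SMAD7 (1.00, SE 0.23, adjusted p = 0.0101) and PMEPA1 (1.39, SE 0.18, adjusted p = 2.3e-05) fell in HT-29 relative to HCT-116. In HCT-116 both genes were already near the median of all probe sets without drug (5.13 and 5.00), as CD109 nearly was in HT-29 (5.55), and a fall from such levels may not be measurable. The shares of all probe sets called were 4.02% for HCT-116 against HT-29, 0.748% for HCT-116 against KM12C and 1.86% for HT-29 against KM12C.

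This fit shares 1 spread per gene among the lines, and without TALL-104 DMSO replicate 2 the SE of the TGFBR3 contrasts in the colorectal lines was 0.19 in place of 0.32. Without that array, HT-29 and KM12C also differed for SMAD3 (1.04, SE 0.19, adjusted p = 0.00158), SMAD7 (-0.73, SE 0.14, adjusted p = 0.00305) and PMEPA1 (-0.69, SE 0.18, adjusted p = 0.0344), so that 4 genes differed in place of 1. HCT-116 and KM12C then differed for 3 in place of 1, with TGFBR2 (0.86, SE 0.16, adjusted p = 0.00409) and PMEPA1 (0.70, SE 0.18, adjusted p = 0.0480) added, and HCT-116 and HT-29 for 4 in place of 3, with SKIL (0.75, SE 0.21, adjusted p = 0.0343) added. The rise of SMAD3 in HT-29 was not shown to differ from the smaller difference in HCT-116 in either fit. The shares of all probe sets in this fit were 3.8%, 1.9% and 6.2% for these 3 pairs.

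Against the immune lines, HT-29 differed from NK-92 for 3 genes (3.12% of probe sets) and from TALL-104 for 4 (5.89%), and KM12C differed from NK-92 for 2 (0.465%) and from TALL-104 for 1 (0.894%). Without the TALL-104 array these counts were 4 (5.36%), 4 (5.35%), 3 (1.29%) and 3 (1%). TGFBR3 was in all of them except KM12C against TALL-104 with all arrays. No gene of the 10 differed between HCT-116 and NK-92 (0.185% of probe sets, 0.495% without the array), between HCT-116 and TALL-104 (0.225% and 0.387%) or between NK-92 and TALL-104 (0% in both fits).

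Beyond these 10 genes, 4 lists of other pathway genes were read in the same fits, each beside the share of all genes called. In HT-29, 2 of 14 genes of ligands and latency, 2 of 10 measured receptors of the wider superfamily, 4 of 18 other SMADs and SMAD regulators and 2 of 18 measured target genes were called, beside 9.85% of all genes. TGFB2, a ligand, rose by 0.94 (SE 0.12, adjusted p = 0.0019) from a low level of 4.91 ± 0.07 to 5.85 ± 0.16 (SD, n = 3). ITGB6, part of the integrin that frees latent TGF-beta, fell by 1.11 (SE 0.15, adjusted p = 0.00198). The activin type I receptor ACVR1B (-0.74, adjusted p = 0.00906) and the bone morphogenetic protein type II receptor BMPR2 (-0.73, adjusted p = 0.00451) both fell. So did FKBP1A (-0.90, adjusted p = 0.00237), which binds type I receptors and keeps them silent without ligand, and the ubiquitin ligase NEDD4L (-0.80, adjusted p = 0.00792), which marks activated SMAD2 and SMAD3 for degradation. The scaffold gene NEDD9 fell by 0.68 (SE 0.11, adjusted p = 0.00477). All 7 stayed called in 6 of 6 fits with an array left out. In a fit over all 30 arrays BMPR2, NEDD4L and NEDD9 were no longer called (adjusted p = 0.278, 0.248 and 0.398). That fit shares 1 spread per gene among the lines and keeps TALL-104 DMSO replicate 2. The SD of BMPR2 was 1.35 on the TALL-104 DMSO arrays, against 0.10 with DMSO and 0.06 with drug in HT-29. These list genes are not given in that fit without the array.

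TGIF1 (-0.47, adjusted p = 0.0429), a SMAD corepressor, SMURF1 (0.61, adjusted p = 0.0494), a ubiquitin ligase, and ID1 (-1.03, adjusted p = 0.0394), chiefly a target of the related bone morphogenetic proteins, were called in HT-29 with all arrays but in only 1, 1 and 2 of those 6 fits. The list medians in HT-29 lay between -0.085 and -0.02, beside -0.02 over all genes and -0.36 over the 10 members.

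HCT-116 and KM12C each had few calls in these lists. In HCT-116, THBS1, a matrix protein that activates latent TGF-beta, rose by 1.45 (SE 0.11, adjusted p = 0.00368), from 6.54 ± 0.03 to 7.99 ± 0.18 (SD, n = 3). THBS1 was called with any array of the line left out, though not in the fit over all 30 arrays (adjusted p = 0.0938). That fit keeps TALL-104 DMSO replicate 2, and the SD of THBS1 on the TALL-104 DMSO arrays was 1.54. CCN2, a matricellular target gene, rose by 1.19 in HCT-116 (SE 0.14, adjusted p = 0.0152) and fell by 1.54 in KM12C (SE 0.21, adjusted p = 0.0150), and each call held in 2 of 6 fits with an array left out. ID1 fell by 0.81 in HCT-116 (SE 0.13, adjusted p = 0.0358) and was called in 0 of the 6. In KM12C, ITGAV, the integrin partner of ITGB6, fell by 1.03 (SE 0.14, adjusted p = 0.0136) and was called in 1 of the 6, without DMSO replicate 3. Calls were 1 of 14 ligand and latency genes and 2 of 18 targets in HCT-116, and 1 of 14 and 1 of 18 in KM12C, beside 1.76% and 1.89% of all genes. The receptor and SMAD regulator lists had none in either line, nor did any list in NK-92 or TALL-104 with all arrays or without DMSO replicate 2.

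**Figure D4:**
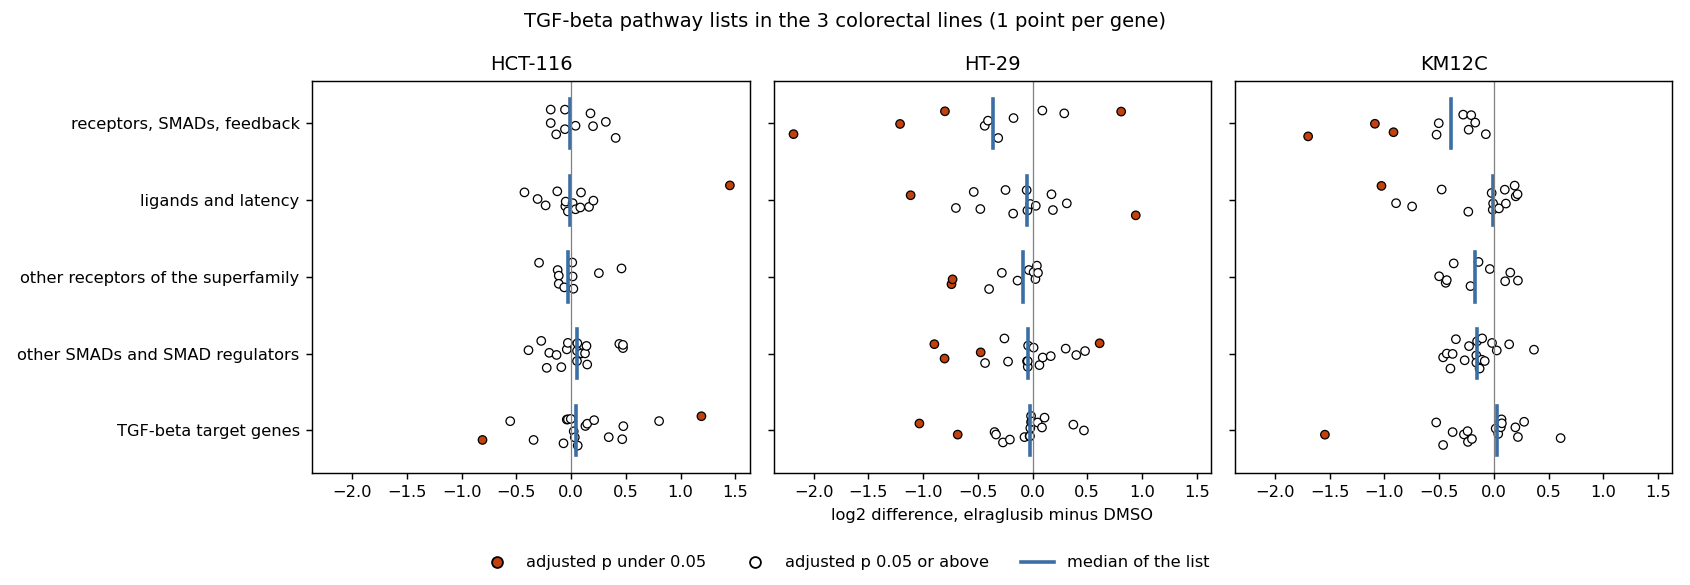
Log2 difference, elraglusib minus DMSO (horizontal axis), of every measured gene of 5 TGF-beta pathway lists in the 3 colorectal lines, 1 point per gene, filled where the adjusted p is under 0.05, with the list median in blue. In HT-29 and KM12C the receptors, SMADs and feedback genes have medians of -0.36 and -0.39, and in HCT-116 -0.01. In KM12C the other medians are -0.01 (ligands and latency), -0.18 (other receptors), -0.16 (other SMADs and regulators) and 0.03 (targets), beside 0.08 over all genes. The first list holds genes that the study had named as lowered in KM12C.

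The study also named LTBP1, PTPN14 and ITGB8 for TGF-beta from these arrays, beside ACVR1B, each as lowered in the line given below. LTBP1, which holds latent TGF-beta in the matrix, differed in KM12C by -0.89 (SE 0.20, adjusted p = 0.0731). In NK-92, ITGB8 differed by -0.11 (SE 0.14, adjusted p above 0.99). ACVR1B in TALL-104 was at -0.29 (SE 0.14, adjusted p = 0.823) with all arrays, and was not called without DMSO replicate 2 either. Its DMSO arrays, replicate 2 among them, read 8.01 to 8.16. PTPN14 in TALL-104 was at 1.26 (SE 1.28) with all arrays and -0.31 (SE 0.28, adjusted p = 0.941) without DMSO replicate 2. None of these passed the adjusted test in those lines. The differences of ITGB8 and ACVR1B were also under the 1.5-fold threshold of the study's methods. The difference of PTPN14 was opposite in sign to the study's with all arrays, and under that threshold without DMSO replicate 2. LTBP1 in KM12C did pass the fold and unadjusted p thresholds of the study's methods. Its unadjusted p was 0.00198.

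Over the 10 group means (5 lines, 2 treatments), the level of each gene was set against 10662 genes that spanned at least 1 log2 unit. Such correlations rest on 5 lines and are a description. CD109 was closest to VSNL1 (Pearson r = 0.998) and SGCE (0.997), TGFBR1 to GIT2 (0.998) and HCFC2 (0.994), and PMEPA1 to RIN2 (0.997) and SLC40A1 (0.996). SMAD4 was closest to ST6GAL1 (0.988) and PHC1 (0.979), SMAD3 to TMOD3 (0.981) and PPP4R1 (0.981), and SMAD2 to LSP1P4 (0.974) and MBNL1 (0.973). SMAD7 followed LINC00869 (0.991) and LOC644634 (0.987), SKIL followed SLC1A5 (0.977) and DNAJC21 (0.970), and TGFBR2 followed ZBTB44 (0.976) and SPG11 (0.975). TGFBR3 had the least close partners, PAXIP1-DT and TRIP11 (0.922 each). Without the TALL-104 array that resembled NK-92, SPPL3 (0.924) took the first place for TGFBR3, with PAXIP1-DT second. The first and second genes of TGFBR2 then changed places, and the second became IFITM2 (0.975) for SMAD2 and ECI2 (0.979) for SMAD4.

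Among the 10 genes themselves, without that array, the closest pair over the 10 group means was TGFBR1 with SMAD7 (r = 0.890), and the most opposed were SMAD4 with PMEPA1 (r = -0.890). SMAD7 with CD109 (r = -0.79) and TGFBR3 with SMAD3 (r = -0.784) were opposed too. SMAD7 and PMEPA1, which fell together in HT-29, were not alike across lines (r = -0.409). With all arrays these values were 0.878, -0.889, -0.8, -0.775 and -0.402, in the same order.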

How the data were processed

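RNA of 30 samples was hybridised to Affymetrix HTA 2.0 arrays. The authors deposited log2 gene-level signal for 67528 probe sets, to 2 decimals, made with the Transcriptomic Analysis Console. Its version and its background and normalization settings were not given in the sources used here. Per the study's methods RNA was extracted in batches of 6 and arrays were run in 2 batches of randomized samples, and the batch of each array is not given, so batch could not be fitted. The number of arrays limits the precision.

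The values were used as deposited. For each line a separate model held only the treatment, in limma 3.58.1 (R 4.3.3, lmFit followed by eBayes), and p-values were adjusted by the Benjamini-Hochberg method over all probe sets. A gene was called at an adjusted p under 0.05. Contrasts between lines and DMSO levels came from 1 model of the 30 arrays with a mean for each of the groups, repeated without TALL-104 DMSO replicate 2. The fits were tested on simulated data.

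Genes were named from the platform annotation, by probe sets with 1 symbol (23781 of 67528, against 1543 with several and 42204 with none), and a gene with several was taken at the highest mean. Gene positions and start windows came from RefSeq (GRCh38.p14), and all 10 genes matched. The text names the 10 genes in every line, up to 4 called genes of each other list in a line, the genes the study names for TGF-beta and the 2 closest genes by correlation. The genes and lists were chosen with earlier results of these data known. Some genes of the lists were not analysed here. Replicate numbers did not pair the samples (same-number correlations of -0.476 to 0.212 over the lines). Quantile normalization, a filter at the 40th percentile of mean signal, trend with robust eBayes, array weights, a replicate block, a fit over all arrays, the study's thresholds and leaving out each array were tried.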

Additional observations from a re-analysis of the deposited data

Results flagged for a closer look

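In the fit over all 30 arrays, 15 differences between the treatment effects of 2 lines passed the test (limma, adjusted p under 0.05), among 10 genes in 10 pairs of lines. Values are the log2 effect in the first line minus that in the second. For HCT-116 minus HT-29 they were 2.00 for TGFBR3, 1.00 for SMAD7 and 1.39 for PMEPA1. For HCT-116 minus KM12C the value was 1.51 for TGFBR3, and for HT-29 minus KM12C it was 1.38 for CD109. For HT-29 minus NK-92 they were -2.21 for TGFBR3, -0.99 for SMAD7 and -1.22 for PMEPA1, where 3.12% of all probe sets were called. For HT-29 minus TALL-104 they were -1.62 for TGFBR3, -0.64 for SMAD4, -1.16 for SMAD7 and -1.18 for PMEPA1, where 5.89% were called. For KM12C minus NK-92 (0.465% called) they were -1.72 for TGFBR3 and -1.13 for CD109, and for KM12C minus TALL-104 (0.894% called) the value was -1.20 for CD109.

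Without TALL-104 DMSO replicate 2, 14 of the 15 were still called, and SMAD4 in HT-29 minus TALL-104 was not (-0.50, adjusted p = 0.127). In that fit TGFBR3 in HT-29 minus TALL-104 was -2.07 (adjusted p = 2.0e-07), and TGFBR3 in KM12C minus TALL-104 was called as well (-1.58, adjusted p = 1.0e-04). These contrasts share arrays, so they are not independent. With each of the 30 arrays left out in turn, 9 of the 15 were called in every fit. SMAD4 in HT-29 minus TALL-104 and CD109 in KM12C minus NK-92 were called in 15 of 30, TGFBR3 in HCT-116 minus KM12C in 22, CD109 in KM12C minus TALL-104 in 27, and SMAD7 in HT-29 minus NK-92 and TGFBR3 in KM12C minus NK-92 in 29. On DMSO arrays CD109 was near the median of all probe sets in NK-92 (4.40) and TALL-104 (4.39), as was PMEPA1 in HCT-116, NK-92 and TALL-104 (4.97 to 5.00), so a fall there may not be measurable. Groups of 3 arrays were too small for the check on single arrays far from the rest.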

How the results depend on the processing

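Of the 50 gene and line pairs, 7 were called. The 4 in HT-29 and TGFBR3 in KM12C stayed called under every alternative and with any array of their line left out. TGFBR2 and CD109 in KM12C stayed called under every alternative except with an array left out, where only the fit without DMSO replicate 3 called them. The number of genes called in KM12C was 3, with 5 under array weights and 1 to 5 with an array left out. TGFBR2 in HT-29 and PMEPA1 in KM12C were among those called under some alternatives only. The causes were not tested. With 3 arrays per group and a shared vehicle, small changes are not resolved.

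Counts of genes whose effect differed between lines moved by over 1.5 times for 4 pairs. For HCT-116 against KM12C the count was 1, with 2 after quantile normalization and 0 to 3 with an array left out. For HT-29 against KM12C it was 1, with 2 after quantile normalization and 1 to 4 with an array left out. With an array left out, KM12C against NK-92 went from 2 to between 0 and 3, and KM12C against TALL-104 from 1 to between 0 and 4. Smaller moves were to 4 from 3 for HCT-116 against HT-29, to 2 to 4 from 3 for HT-29 against NK-92 and to 3 to 5 from 4 for HT-29 against TALL-104. DMSO levels of NK-92 and TALL-104 differed for 5 genes, and for 3 to 7 with an array left out, 7 being without TALL-104 DMSO replicate 2.

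Some differences that were not called changed sign. Array weights gave 0.000497 for TGFBR2 in HCT-116, -0.062 for TGFBR3, 0.018 for SMAD4 and -0.00283 for PMEPA1 in NK-92, and -0.037 for TGFBR1, -0.078 for TGFBR2, 0.073 for SKIL and 0.024 for PMEPA1 in TALL-104. Quantile normalization gave -0.039 for SMAD2 in HCT-116, -0.0094 for PMEPA1 in NK-92 and 0.042 for SKIL in TALL-104. With an array left out, TGFBR2 in HCT-116 ranged from -0.11 to 0.037 and TGFBR1 in HT-29 from -0.068 to 0.17. In NK-92 the ranges were -0.093 to 0.24 for TGFBR1, -0.12 to 0.12 for TGFBR3, -0.10 to 0.067 for SMAD4, -0.062 to 0.093 for PMEPA1 and -0.0083 to 0.082 for CD109. In TALL-104 they were -0.19 to 0.77 for TGFBR1, -0.175 to 0.475 for TGFBR2, -0.0050 to 0.735 for SMAD3, -0.14 to 0.12 for SKIL and -0.078 to 0.037 for PMEPA1.

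Over all probe sets, calls in HCT-116 numbered 779, with 105 under the replicate block, 1554 under array weights and 87 to 148 with an array left out. In KM12C they numbered 1011, with 1613 after the filter, 2303 in the fit over all arrays, 8538 under array weights, 7265 without DMSO replicate 3 and 195 to 385 with another array left out. In HT-29 they numbered 5408, with 8612 under array weights and 3442 to 4993 with an array left out. With the replicate number as a block, 4 genes of the 10 were called in HT-29, 3 in KM12C and 0 in the other lines, as without it. Each gene had 1 probe set, so the planned choice of another probe set gave no value.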
